A study of Mus musculus with 1545 samples.

Results

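Potassium channel genes were taken as the 95 rows of the molecule count table whose symbol starts with Kcn, of 24378 rows in all, with rows ending in _loc and a number left out. The 50 genes with at least 100 molecules over all cells are described here with their values, and the other 45, of which 2 had no molecule in any cell, are only counted. Just inside that limit lay Kcnj12 with 100 molecules, and just outside it Kcnq3 with 90. The 95 genes together held 42290 molecules, 0.285% of all, and the 50 described held 97.5% of these. A median of 13 of the 50 genes was seen per cell, with a range of 0 to 29.

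Potassium channels let potassium leave the neuron, which holds the membrane near its resting potential and ends the action potential. Voltage-gated Kv subunits of the Kcna, Kcnb, Kcnc and Kcnd families form channels of 4 subunits, and the silent subunits (Kcnf, Kcng, Kcns, Kcnv) form no channel alone but change those of the Kcnb family. M-type (Kcnq), EAG-type (Kcnh), inwardly rectifying (Kcnj), leak (Kcnk), calcium-activated (Kcnn, Kcnma) and sodium-activated (Kcnt) channels make up the rest, with auxiliary subunits (Kcnab, Kcnip, Kcnmb) bound to some of them. In the dorsal horn, where sensory fibres from skin and viscera enter the spinal cord, A-type currents through Kcnd channels delay firing and are best known from excitatory interneurons.

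Single neurons of the dorsal horn of mice were sequenced with molecule (UMI) counts, and each of the 1545 samples is 1 cell. The groups were 537 cells of the vGat-Cre-tdTomato line at 17 to 24 days, 371 cells of the vGlut2-eGFP line at 23 to 26 days and 637 cells of C57bl6 wild-type mice at 18 to 28 days, none of them treated per the labels. In the vGat line a Cre named for the vesicular GABA transporter switches on tdTomato, so any cell in which that gene was once active can be marked, and in the vGlut2 line eGFP named for the vesicular glutamate transporter marks the cell. No animals are named, so cells of 1 line, sex label and age were summed as an animal set, giving 3 vGat, 4 vGlut2 and 10 wild-type sets, and p-values measure the spread between these sets. The median cell held 10413 molecules in the vGat line, 7030 in the vGlut2 line and 8687 in wild type. No capture run held cells of more than 1 line, and effects of line and of run cannot be told apart.

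The marker genes matched the line labels apart from 1 set. Gad1 averaged 817 ± 60.6 CPM (counts scaled to a library of 1000000 molecules) in the 3 vGat sets and 36.9 ± 71.8 in the 4 vGlut2 sets, and Slc17a6, the vesicular glutamate transporter gene, averaged 0.628 ± 0.582 CPM in the vGat sets and 1152 ± 383 CPM in the vGlut2 sets (SD). The 26-day vGlut2 set stood apart, with 17 cells of which 5 were annotated as inhibitory, 145 CPM of Gad1, and a sum of 39253 CPM over 10 oligodendrocyte genes, against 76.5 to 2062 CPM in the other 3 vGlut2 sets. That sum was 1390 to 4439 CPM in vGat sets and 19029 to 50214 CPM in wild-type sets. For potassium channel genes, results that rest on this set are also given without it.

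The 50 genes comprise 5 of 8 rows of the Kcna family, both of Kcnb, all 4 of Kcnc, 2 of 3 of Kcnd, and 4 of 10 silent subunits. They also comprise 2 of 5 of Kcnq, 5 of 8 of Kcnh, 7 of 15 of Kcnj, 5 of 14 of Kcnk, 1 of 4 of Kcnn, Kcnma1, and both of Kcnt. Among auxiliary subunits 9 of 17 rows passed. Kcnq1ot1, an antisense RNA of the Kcnq1 locus and not a channel, held the most molecules of any row (5161). Symbols of 6 of the 50 overlap an exon of another gene on the opposite strand (Kcnq1ot1, Kcnip4, Kcnt2, Kcnk3, Kcnn2 and Kcnh7). The sources used here do not say whether counting used the strand, so counts of these 6 are uncertain.

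The reporter lines were compared first, since there the fluorescent marker and not a cluster separates the cells. Of 48 of the 50 genes that passed the filter on low counts, 9 were higher and 2 lower in vGat cells than in vGlut2 cells (edgeR quasi-likelihood test on set sums, Benjamini-Hochberg adjusted p under 0.05 over 10598 genes). Over all genes tested, 4.32% were higher and 4.53% lower. The median log2 difference, vGat over vGlut2, was 0.34 over the 48 genes and -0.01 over all genes. In such sums, fewer cells of a type and less RNA per cell cannot be told apart.

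Among the potassium channel genes called, silent subunits showed the widest log2 differences in both directions. Each had few molecules in the line where it was low, which widens a log2 difference. Each passed the filter on low counts through the line where it was high. Kcnf1 (Kv5.1), which forms no channel alone, had 33.6, 28.0 and 30.1 CPM in the vGat sets of 17, 18 and 24 days, against 2.17, 0, 1.53 and 12.6 CPM in the vGlut2 sets of 23, 24, 25 and 26 days. All vGat sets lay above all vGlut2 sets, and the 26-day set was the highest of the vGlut2 line. The log2 difference was 3.64 ± 0.50 (SE) with adjusted p = 0.000137. Kcns2 (Kv9.2), a partner of Kcnb channels, had 35.3, 49.4 and 38.9 CPM in vGat sets and 2.17, 0, 7.16 and 6.29 CPM in vGlut2 sets, with no overlap and a log2 difference of 2.79 ± 0.37 (adjusted p = 0.000102). In the 24-day vGlut2 set 1 molecule equals 9.57 CPM, so the zeros of Kcnf1 and Kcns2 there allow up to 28.7 CPM (3 counts).

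Kcng2 (Kv6.2), the third silent subunit called, went the other way. It had 0.569, 1.92 and 0.734 CPM in the vGat sets and 19.5, 38.3, 18.9 and 6.29 CPM in the vGlut2 sets, in the same orders of age. Over the whole lines that is 7 molecules in vGat cells and 51 in vGlut2 cells, 37 of them in the 25-day set. The groups did not overlap, but the 26-day vGlut2 value is 1 molecule. The log2 difference was -3.91 ± 0.53 (adjusted p = 0.000107).

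Kcnc and Kcna subunits, which form fast-deactivating and low-threshold channels, were higher in the vGat line where called. Kcnc4 (Kv3.4), a fast inactivating subunit, had 73.9, 73.2 and 68.3 CPM in vGat sets and 26.1, 38.3, 24.5 and 31.4 CPM in vGlut2 sets. The groups were far apart, with a log2 difference of 1.40 ± 0.21 (adjusted p = 0.000314). Kcna2 (Kv1.2), a subunit of axonal and juxtaparanodal channels, had 148, 138 and 184 CPM in vGat sets and 43.4, 57.4, 90.0 and 119 CPM in vGlut2 sets. Its log2 difference was 0.97 ± 0.26 (adjusted p = 0.0308). Kcna1 (Kv1.1), its usual partner, had 131, 133 and 138 CPM in vGat sets and 73.8, 86.1, 82.8 and 101 CPM in vGlut2 sets. Neither Kcna gene overlapped between lines, but the difference of Kcna1 was smaller, at 0.64 ± 0.19 (adjusted p = 0.0484).

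The A-type subunits of the Kcnd family moved in opposite directions. Kcnd2 (Kv4.2) had 182, 208 and 180 CPM in vGat sets and 84.7, 163, 99.2 and 69.1 CPM in vGlut2 sets, a log2 difference of 0.91 ± 0.21 (adjusted p = 0.0108). Kcnd3 (Kv4.3) had 47.8, 68.6 and 59.5 CPM in vGat sets and 104, 163, 98.7 and 44.0 CPM in vGlut2 sets, a log2 difference of -0.79 ± 0.24 (adjusted p = 0.0491). The Kcnd2 groups did not overlap, while for Kcnd3 the 26-day vGlut2 set lay below every vGat set. Without that set the Kcnd3 difference was -0.88 (adjusted p = 0.00178).

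Among leak and auxiliary genes, 3 were called. Kcnk2 (TREK-1), a mechanosensitive leak channel, had 46.1, 62.4 and 58.7 CPM in vGat sets and 34.7, 28.7, 26.6 and 44.0 CPM in vGlut2 sets (log2 difference 0.84 ± 0.24, adjusted p = 0.0363). Kcnab1, a beta subunit that speeds inactivation of Kcna channels, had 62.6, 70.5 and 72.7 CPM in vGat sets and 17.4, 57.4, 45.0 and 31.4 CPM in vGlut2 sets (0.83 ± 0.25, adjusted p = 0.0448). Both stayed above the vGlut2 line in every vGat set. Kcnmb2, an inactivating beta subunit of the large-conductance channel Kcnma1, had 19.3, 17.2 and 23.5 CPM in vGat sets and 4.34, 19.1, 1.53 and 0 CPM in vGlut2 sets. The 19.1 CPM of the 24-day set are 2 molecules and overlap the vGat range, and the log2 difference was 2.77 ± 0.56 (adjusted p = 0.00361).

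**Figure D1:**
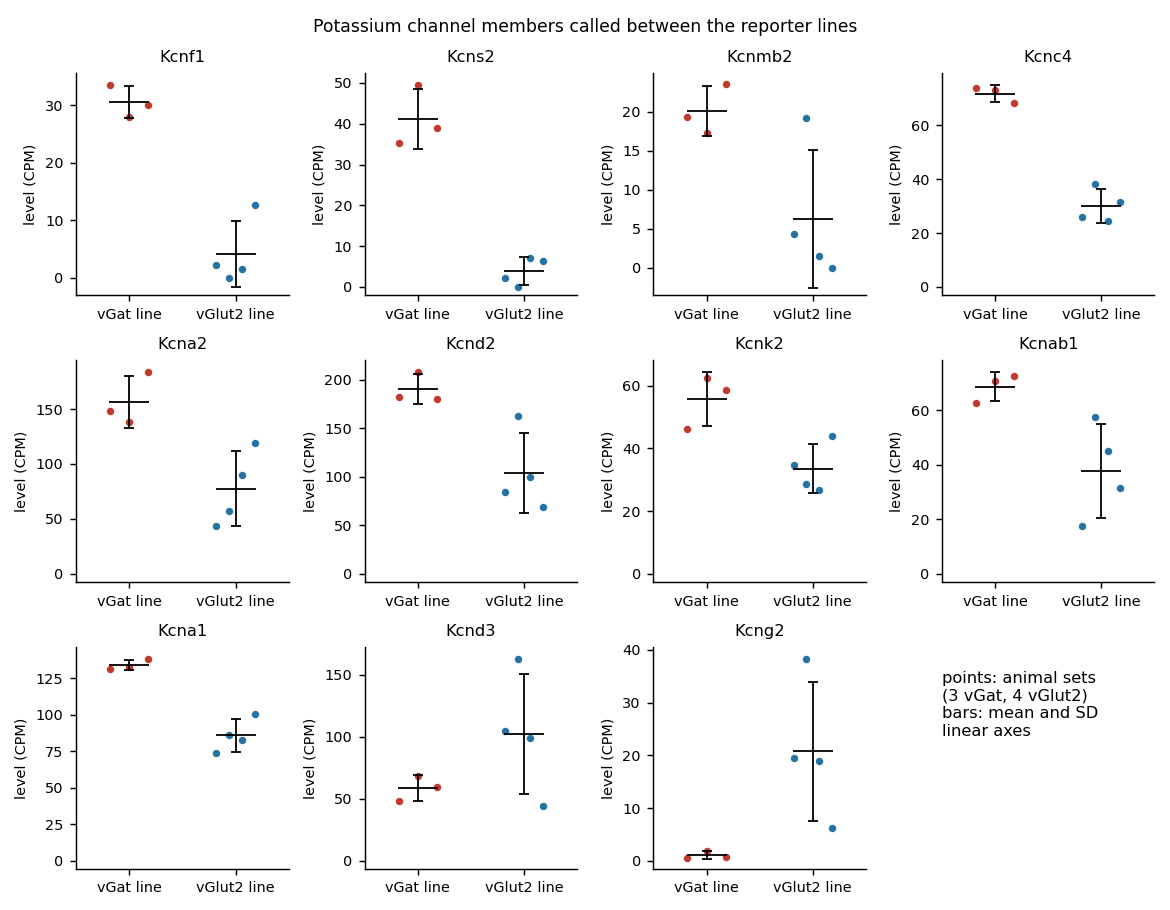
Level in CPM (linear y axes) of the 11 potassium channel genes called between the reporter lines, for 3 vGat sets (left, red) and 4 vGlut2 sets (right, blue), with mean and SD. Kcnf1, Kcns2 and Kcnc4 of vGat sets lie above all vGlut2 sets, Kcng2 lies below them, and Kcnmb2 and Kcnd3 overlap.

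The calls differ in how far they rest on single sets. Kcnf1, Kcns2 and Kcnc4 were called in all 13 alternatives, Kcng2 in all 10 that tested it, and Kcnmb2 in 12 of 13 (not without the 25-day vGlut2 set, adjusted p = 0.20). The other 6 genes lost the call in 5 to 9 of 13 alternatives, with unchanged sign. Leaving out any 1 of the 17-, 18- and 24-day vGat and 23-, 24- and 25-day vGlut2 sets left 3 to 5 genes higher and 0 or 1 lower, while without the 26-day vGlut2 set 15 were higher and 6 lower. The lines differ in age, and a fit that included age left 4 higher and 1 lower. When each line was limited to the class its reporter marks, 12 were higher and 3 lower. The calls added there included Kcnj2 and Kcna6 (higher in vGat cells by 2.02 and 0.85 on the log2 scale) and Kcnip4 (log2 difference -0.99). Shares over all genes were not counted for the alternatives, so whether these numbers of calls are particular to potassium channel genes is not known.

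Promoter sequences are shown for Kcnf1, Kcnmb2 and Kcnc4, the called genes with the largest rise in the vGat line for which RefSeq (build GRCm38.p6) lists a single start. Each runs 5′ to 3′ from 250 bases before to 50 after the start of the gene, and capitals mark matches to GGGCGG on either strand.
Kcnf1 (chr12:17176839-17177138, minus strand): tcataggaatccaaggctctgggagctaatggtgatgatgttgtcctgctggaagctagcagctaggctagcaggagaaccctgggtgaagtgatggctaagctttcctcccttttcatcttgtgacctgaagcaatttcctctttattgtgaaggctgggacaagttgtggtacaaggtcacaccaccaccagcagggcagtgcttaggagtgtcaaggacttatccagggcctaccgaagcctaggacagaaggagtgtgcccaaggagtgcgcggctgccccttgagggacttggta
Kcnmb2 (chr3:31902453-31902752, plus strand): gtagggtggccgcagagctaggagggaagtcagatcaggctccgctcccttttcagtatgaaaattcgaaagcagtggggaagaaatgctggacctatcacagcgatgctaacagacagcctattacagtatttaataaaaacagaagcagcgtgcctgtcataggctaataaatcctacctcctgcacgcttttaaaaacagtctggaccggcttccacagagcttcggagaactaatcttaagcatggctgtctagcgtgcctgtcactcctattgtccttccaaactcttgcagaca
Kcnc4 (chr3:107458849-107459148, minus strand): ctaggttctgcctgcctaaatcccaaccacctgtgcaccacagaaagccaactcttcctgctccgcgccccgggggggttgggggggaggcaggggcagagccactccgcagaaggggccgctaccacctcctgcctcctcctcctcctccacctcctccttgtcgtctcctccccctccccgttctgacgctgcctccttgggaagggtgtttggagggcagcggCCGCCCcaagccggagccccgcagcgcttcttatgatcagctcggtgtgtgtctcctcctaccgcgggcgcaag
GGGCGG (the GC box), TATAAA and TGACGTCA were searched on both strands. Kcnc4 held 1 GC box, and Kcnf1 and Kcnmb2 held none of the motifs. Of all 32851 promoters in the table, 35.7% held GGGCGG, 13.6% TATAAA and 1.79% TGACGTCA. The windows had 53.0%, 47.7% and 66.7% G and C in Kcnf1, Kcnmb2 and Kcnc4.

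Inhibitory and excitatory cells were then compared within wild type, in the 7 sets where each class had 10 cells or more. The classes were drawn from clusters of these same cells, so differences are described without a test. Of the 23 genes fitted, 4 were higher in inhibitory cells by at least 1.5-fold and in 7 of 7 sets, among them Kcnab1, Kcnc4 and Kcnd2, and none was lower by that rule. Over all 6170 genes fitted, 2.43% were higher and 1.91% lower by the same rule.

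Kcnab1 averaged 56.8 ± 17.3 CPM in inhibitory cells, against 24.3 ± 10.6 CPM in excitatory ones of wild type (SD, n = 7 sets), a log2 difference of 1.31 ± 0.25 (SE). Kcnc4 averaged 77.3 ± 29.8 CPM in inhibitory cells, against 34.2 ± 19.5 CPM in excitatory ones (1.20 ± 0.25), and Kcnd2 averaged 147 ± 39.2 CPM in inhibitory cells and 79.6 ± 11.3 CPM in excitatory cells (0.85 ± 0.15). Those 3 genes were also called between the reporter lines, from cells that share no mouse with the wild type by label. The large-conductance channel gene Kcnma1 averaged 110 ± 46.1 CPM in inhibitory cells and 86.7 ± 37.5 CPM in excitatory cells, higher in inhibitory cells in 5 of 7 sets.

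Silent subunits were too low in wild type to pass the filter, but their counts ran the same way as between the lines. Kcnf1 had 52 molecules in inhibitory and 6 in excitatory cells of the 7 sets, and was higher in inhibitory cells in 6. Kcns2 had 72 molecules in inhibitory and 21 in excitatory cells and was higher in inhibitory cells in 7 of 7 sets, and Kcng2 had 6 in inhibitory and 78 in excitatory cells and was lower in inhibitory cells in 7 of 7. Kcnd3 averaged 43.9 ± 14.1 CPM in inhibitory cells, against 66.8 ± 17.5 CPM in excitatory ones, lower in inhibitory cells in 5 of 7 sets. Kcnmb2 also ran the same way as between the lines, higher in inhibitory cells in 6 of 7 sets. Kcna1 did not share the direction seen between the lines, averaging 310 ± 60.1 CPM in inhibitory cells, against 412 ± 63.2 CPM in excitatory ones. Its level was lower in inhibitory cells in 6 of 7 sets. Kcna2 and Kcnk2, both called higher in the vGat line, differed little between the wild-type classes. Their log2 differences, inhibitory over excitatory, were 0.12 ± 0.20 for Kcna2 and -0.03 ± 0.27 for Kcnk2 (SE). Inhibitory cells had the lower Kcna2 level in 4 of 7 sets and the lower Kcnk2 level in 5 of 7. Differences between the 2 settings were not tested.

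**Figure D2:**
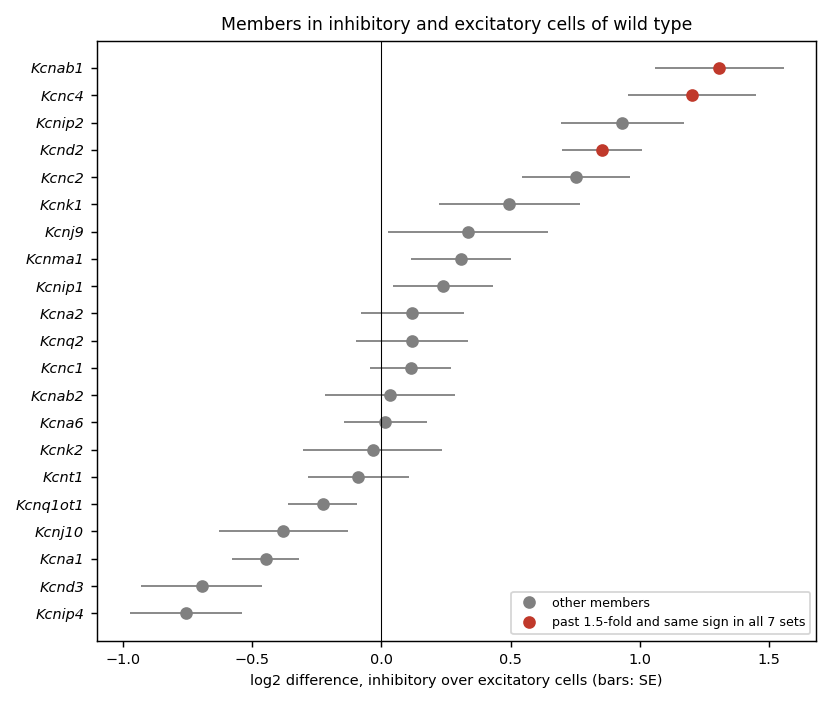
Log2 difference, inhibitory over excitatory cells (x axis), with SE bars, for potassium channel genes fitted in 7 wild-type sets. Kcnab1, Kcnc4 and Kcnd2 (red) exceed 1.5-fold with the same sign in all sets, while Kcnip4 and Kcnd3 have the lowest values.

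Levels were set out across the 30 annotated types, of which 26 hold at least 20 cells (11 inhibitory, 15 excitatory). Types are clusters of these cells, so the levels carry no test, and 95% Poisson intervals cover counting error only. The ratio of the highest to the median of the 26 types had a median of 2.97 over the 50 genes and ran up to 17.8. In 25 genes the highest type was inhibitory and in 25 excitatory. The least varied was Kcnq1ot1, at most 1.32 times its median, followed by Kcnma1 (1.48) and Kcnip1 (1.71), a calcium sensor of Kcnd channels.

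Among the 15 genes with the largest ratio, 10 were highest in an inhibitory type. Of the 26 types behind the median 15 are excitatory, so a gene low in excitatory types gets a large ratio. The same count was not made over all genes. Kcnf1 reached 101 CPM (77.1 to 131) in Gaba12 (cluster GABA_Cplx1_Sorcs3), 17.8 times its median type, from 59 molecules in 56 cells. That median was 5.67 CPM over both classes. Among the 11 inhibitory types in vGat cells alone, Gaba12 had 99.2 CPM of Kcnf1 and the median type 25.6 CPM. In the 5 sets with at least 3 Gaba12 cells Kcnf1 had 119, 81.2 and 95.9 CPM in vGat sets and 160 and 31.4 CPM in wild-type sets. Gaba10 (GABA_Cplx1_Adamts5) followed with 74.8 CPM (53.9 to 101), an interval that overlaps that of Gaba12. No Kcnf1 molecule was counted in Glut1, Glut2, Glut3, Glut7, Glut8, Glut9, Glut12 or Glut15, and each other excitatory type had 1 or 4. Kcnip3, a calcium-binding sensor of Kcnd channels, was likewise highest in Gaba12, at 108 CPM (83.1 to 138).

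Gaba14 (GABA_Crabp1, 41 cells) was the highest of the 26 types for 4 of these genes. Gaba15 (GABA_Crabp1_Spp1), with 11 cells too small to be ranked, had higher values of all 4, at 378 CPM of Kcnip2 (282 to 497), 163 CPM of Kcnab3 (102 to 247), 119 CPM of Kcnv1 (67.8 to 193) and 51.9 CPM of Kcna5 (20.9 to 107). Each of these intervals overlaps that of Gaba14. Kcnip2, a Kcnd sensor, reached 338 CPM (288 to 394) there, 9.12 times its median type. Every set with at least 3 cells was well above that median of 37.1 CPM, with 345, 395 and 205 CPM in vGat sets and 297 and 270 CPM in wild-type sets. Kcnab3, a beta subunit of Kcna channels, reached 156 CPM (123 to 195), 10.8 times its median type, and the next of the 26 types, the excitatory Glut1, had 55.5 CPM (29.5 to 94.9). The intervals of those neighbours in order do not overlap. Kcnv1, a silent subunit, had 63.5 CPM (43.1 to 90.1) and Kcna5 38.9 CPM (23.4 to 60.8) in Gaba14, the Kcna5 value being 25.8 CPM without the 17-day vGat set.

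Kcnmb2 was highest in Gaba10 at 42.8 CPM (27.4 to 63.6), close to Gaba14 at 41.0 CPM (25.0 to 63.2), and the order of these types is not resolved. Kcnt2 and Kcnk2 were both highest in Gaba3 (GABA_Gal_Rspo3, 145 cells). Kcnt2, a sodium-activated channel, reached 150 CPM (130 to 172) there, 6.11 times its median type, and Kcnk2 reached 147 CPM (127 to 169), 5.08 times. Of the 145 cells 108 are of the vGat line, where Kcnt2 in Gaba3 had 164 CPM, against 94.1 CPM in wild type. Between the 10 sets with at least 3 cells Kcnk2 ran from 43.6 to 560 CPM and Kcnt2 from 28.5 to 204 CPM. Kcns2 was about level in Gaba8 (54.0 CPM, 38.4 to 73.8), Gaba14 (53.2) and Gaba3 (51.8).

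Excitatory types led for 5 of the 15 genes. Glut3 (Glut_Cck_Trh, 34 cells) was the highest for Kcnh8, an EAG-type channel of slow gating, at 130 CPM (92.2 to 179), 7.16 times its median type. It also led for Kcng2 at 68.6 CPM (41.9 to 106), against 0 molecules in Gaba10 (up to 6.57 CPM by the interval), and for Kcnk13, a leak channel, at 75.4 CPM (47.3 to 114). Of the 22 Kcnk13 molecules 12 came from 5 cells of the 27-day wild-type set (274 CPM), and without that set the level in Glut3 was 40.4 CPM, again the highest of the 26 types. Kcnmb4, a neuronal beta subunit of Kcnma1, was highest in Glut14 at 31.8 CPM (16.9 to 54.4) from 13 molecules, of which 8 came from 3 cells of the 18-day wild-type set. Without that set its level was 13.7 CPM, below 7 other types. In wild-type cells alone the same highest type led for 13 of the 15, among types with at least 10 such cells, with Kcna5 and Kcnmb4 the exceptions.

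**Figure D3:**
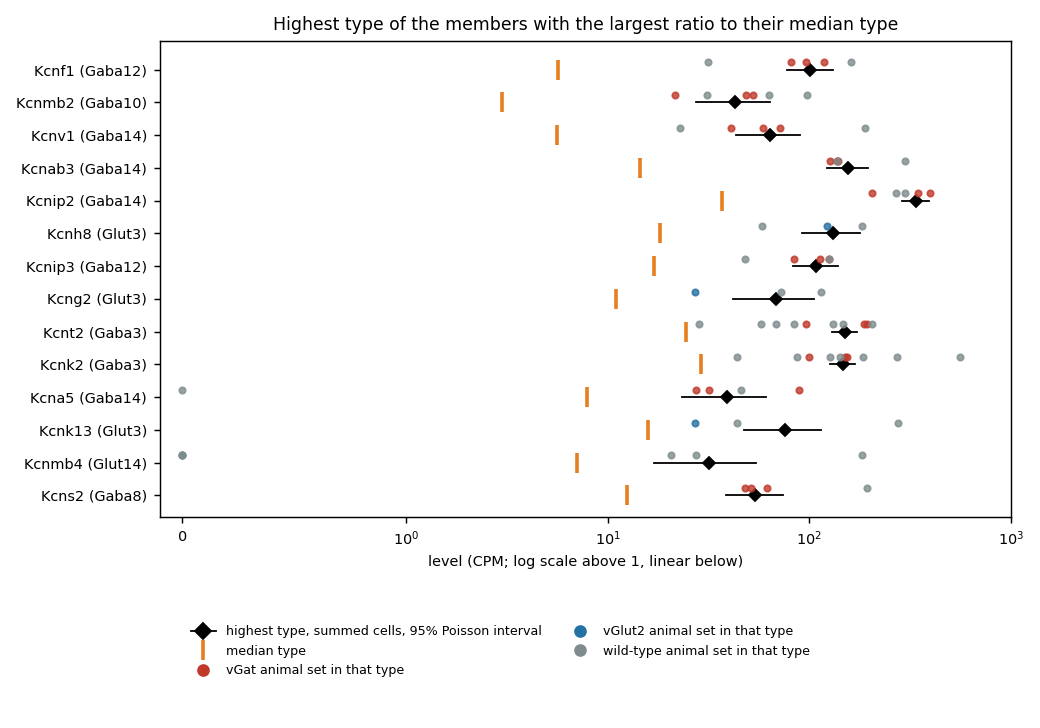
Level in CPM (log x axis above 1) of 14 potassium channel genes in their highest type (black, with 95% Poisson interval), in animal sets with at least 3 cells of that type (points coloured by line), and in the median of 26 types (orange). For Kcnf1, Kcnab3 and Kcnip2 every set lies above the median type, while sets of Kcna5 and Kcnmb4 reach 0.

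More abundant genes differed between types by smaller ratios but with tighter intervals. Kcna2 was highest in Gaba13 (GABA_Cplx1_Sst) at 341 CPM (293 to 396) and lowest in Glut9 at 32.9 CPM from 9 molecules. Kcnt1, the other sodium-activated channel, was highest in the excitatory Glut8, Glut5 and Glut7 (346, 342 and 339 CPM, not distinct from one another) and lowest in Glut14 at 88.1 CPM (61.7 to 122). These sums pool the lines, and 83 of 104 Glut7 cells but 10 of 34 Glut14 cells are of the vGlut2 line, in which Kcnt1 was higher. Glut8 had 458 CPM in the vGlut2 line and 227 CPM in wild type, Glut7 363 CPM in the vGlut2 line and 253 CPM in wild type, and Glut14 118 CPM in the vGlut2 line and 79.4 CPM in wild type. Kcnd3 was high in Glut5 (139 CPM, 89.3 to 207) but also in the inhibitory Gaba3 (126 CPM, 108 to 146) and Gaba2 (115 CPM, 94.9 to 139). Kcnd2 was highest in Gaba8, Gaba9 and Gaba10 (264, 257 and 253 CPM) and lowest in Glut2 at 43.8 CPM (23.9 to 73.4). Kcnip4, another Kcnd sensor, was highest in Glut15, Glut8 and Glut10 (212, 198 and 193 CPM) and lowest in Gaba11 at 29.7 CPM (17.9 to 46.4).

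Families were also summed over all their rows, in wild-type cells alone since types differ in their share of each line (10 inhibitory and 14 excitatory types with at least 10 such cells). Silent subunits had a median of 72.0 CPM over inhibitory types (43.6 to 155) and 39.3 CPM over excitatory types (0 to 127). The Kcnc family had 428 CPM over inhibitory types (309 to 739) and 269.8 CPM over excitatory types (177 to 711), and Kcnd 192 CPM over inhibitory types (78.8 to 293) and 137 CPM over excitatory types (66.6 to 247). For Kcna the medians were 627 CPM over inhibitory and 599 CPM over excitatory types, for Kcnj 171 CPM over inhibitory and 187 CPM over excitatory types, and for auxiliary subunits 358 CPM over both. The ranges of the classes overlapped in each of these families. All rows together, without Kcnq1ot1 and over cells of all lines, ran from 1954 CPM in Gaba7 to 3291 CPM in Gaba12.

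Among the 24 genes with at least 500 molecules, the pair most alike across the 26 types was Kcna2 and Kcnc1 (Pearson 0.76 on log2(CPM + 1), Spearman 0.71). Most opposed were Kcnip4 and Kcnab1 (-0.70). These are descriptions over 26 points that share libraries and differ in depth, and the level of Kcna2 itself had a Pearson correlation of 0.55 with the log2 median molecules per cell of the type, Kcnc1 one of 0.27.

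**Figure D4:**
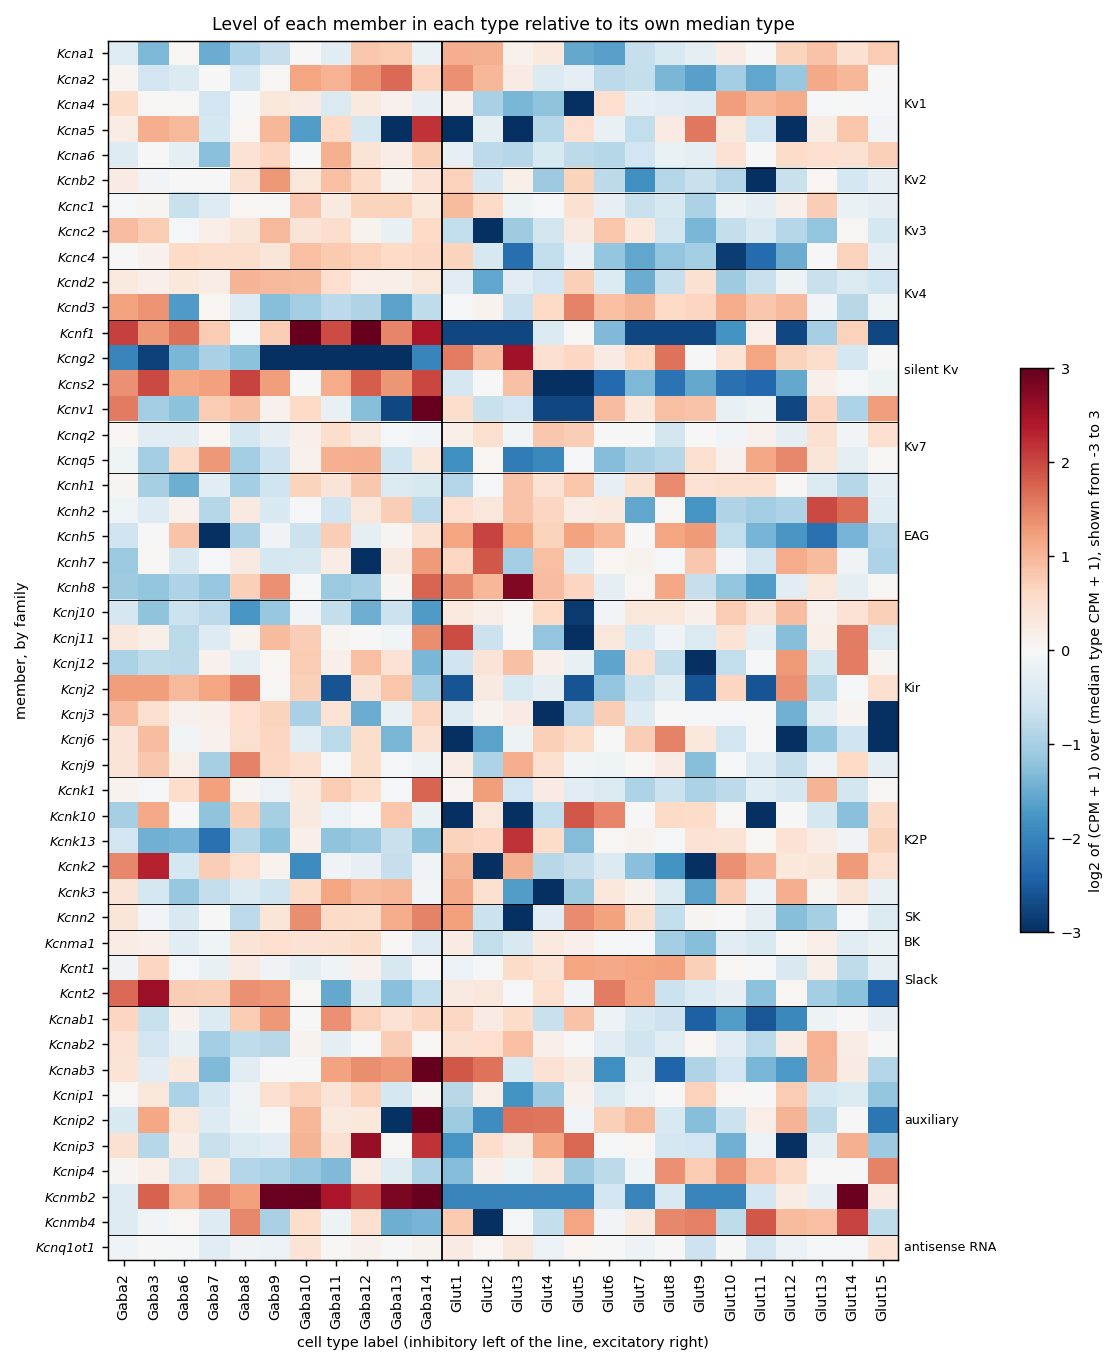
Log2 of each gene's (CPM + 1) in each of 26 types (x axis, inhibitory left) over the same in its median type, for 48 potassium channel genes by family (y axis), red above and blue below the median and shown from -3 to 3. Kcnf1, Kcns2 and Kcnmb2 are red mainly in inhibitory types and Kcng2 mainly in excitatory types, while Kcnq1ot1 is nearly even.

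Reporter lines were also set against wild type within the class that the reporter marks. In inhibitory cells (3 vGat and 7 wild-type sets) 1 of 30 genes tested was higher and 3 were lower in the vGat line, where 8.39% of all 7687 genes were higher and 12.9% lower. In excitatory cells (4 vGlut2 and 9 wild-type sets) 2 of 28 were higher and 5 lower in the vGlut2 line, where 5.08% of all 7163 genes were higher and 10.4% lower. The medians of the potassium channel genes tested were 0.10 and -0.0013 on the log2 scale, and those of all genes 0.03 and 0.0047. These comparisons share wild-type mice, and their values are given side by side.

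Kcna1 was lower in both reporter lines. It had 132, 133 and 138 CPM in inhibitory cells of the vGat line, and a lowest, median and highest of 208, 312 and 394 CPM in wild type. In excitatory cells it had 74.3, 86.1, 82.8 and 101 CPM in the vGlut2 sets of 23 to 26 days, and a lowest, median and highest of 253, 386 and 512 CPM in wild type. No reporter set reached the lowest wild-type set. The log2 differences were -1.29 ± 0.19 (adjusted p = 1.21e-05) and -2.25 ± 0.24 (adjusted p = 3.13e-06), and neither call was lost in any alternative run (16 and 19). Within types, over cells pooled by line, Kcna1 was lower in 9 of 10 inhibitory types of the vGat line and in 12 of 12 excitatory types of the vGlut2 line with at least 10 cells on each side. Gaba14 was the exception, with 239 CPM in the vGat line, against 149 CPM in wild type.

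Kcna6 (Kv1.6), with 36.8 to 54.7 CPM in vGlut2 sets and 92.8 to 154 CPM in wild type, fell by 1.27 on the log2 scale in excitatory cells (adjusted p = 0.000454). In inhibitory cells it had 71.9 to 93.1 CPM in the vGat line, against 74.3 to 141 CPM in wild type, and was not called (adjusted p = 0.0664).

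Kcnj10 (Kir4.1), an inward rectifier best known from astrocytes and oligodendrocytes, had the largest fall. It had 4.00, 4.21 and 2.94 CPM in inhibitory cells of the vGat line, and 42.7, 66.9 and 150 CPM as lowest, median and highest in wild type (log2 difference -4.34 ± 0.38, adjusted p = 7.45e-09). In excitatory cells it had 2.19, 0 and 8.18 CPM in the vGlut2 sets of 23, 24 and 25 days but 129 CPM in the 26-day set, and 62.1, 101 and 135 CPM in wild type. The log2 difference there was -2.74 ± 0.62 (adjusted p = 0.0038), and -4.01 without the 26-day set. It lost the call without the 25-day set (adjusted p = 0.12) and with DESeq2 (0.18).

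Glial genes were set beside Kcnj10. All 10 oligodendrocyte genes were lower in inhibitory cells of the vGat line, with sums of 1390 to 4439 CPM, against 18875 to 38270 CPM in wild type. In excitatory cells 3 of the 10 were called lower, and their sum was 78.7, 76.5 and 2062 CPM in vGlut2 sets of 23 to 25 days, 37936 CPM in the 26-day set and 15957 to 57219 CPM in wild type. Of 6 astrocyte genes, 4 passed the filter in inhibitory cells and 3 were lower (Gja1, Slc1a3 and Aqp4), while 1 passed in excitatory cells and was not called. Sums of the 6 were 90.8 to 139 CPM in the vGat line, against 139 to 418 CPM in wild type, and 101 to 199 CPM in the vGlut2 line and 113 to 250 CPM in wild type. Their part in the differences from wild type was not tested.

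Kcnk13 (THIK-1), a leak channel also known from microglia, was lower in excitatory cells of the vGlut2 line. It had 0, 9.57, 7.67 and 27.6 CPM there, from 19 molecules in all, and a lowest, median and highest of 19.6, 29.9 and 55.5 CPM in wild type (log2 difference -2.21 ± 0.52, adjusted p = 0.00516). The 26-day set overlapped the wild type, and without it the difference was -2.52 (adjusted p = 0.000472). The call was lost without the 25-day set (adjusted p = 0.080). Summed microglia genes, 6 in all, were 0 to 2.05 CPM in these vGlut2 sets and 0 to 19.9 CPM in wild type, and none passed the filter. Their part was not tested.

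The sodium-activated channels were the only channel genes called higher in a reporter line than in wild type. Kcnt2 had 48.5, 78.1 and 81.5 CPM in inhibitory cells of the vGat line, and 7.08, 36.6 and 59.8 CPM as lowest, median and highest in wild type, so the groups overlapped (log2 difference 1.17 ± 0.33, adjusted p = 0.0123). In excitatory cells it had 37.2, 47.8, 47.0 and 46.0 CPM in the vGlut2 line, and 0, 11.1 and 32.3 CPM in wild type, with no overlap (1.47 ± 0.40, adjusted p = 0.0154). Pooled by type, Kcnt2 was higher in 10 of 10 inhibitory types of the vGat line and in 10 of 12 excitatory types of the vGlut2 line. Kcnt1 had 225, 316, 342 and 138 CPM in excitatory cells of the vGlut2 line, and 110, 148 and 217 CPM in wild type (0.73 ± 0.20, adjusted p = 0.0156). Here too the 26-day set overlapped the wild type, and without it the difference was 0.87 (adjusted p = 0.0021).

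These calls of higher level rested on single sets. Kcnt2 was no longer called in inhibitory cells without the 20-day wild-type set (adjusted p = 0.056), the 18-day vGat set (0.066) or the 24-day vGat set (0.076), nor in excitatory cells without the 25-day vGlut2 set (0.14). Kcnt1 lost its call without the vGlut2 set of 24 days (0.051) or of 25 days (0.24). Leaving out the 26-day vGlut2 set gave 4 genes higher and 5 lower in the vGlut2 line, and without the 25-day vGlut2 set 0 were higher and 3 lower. The shares over all genes were not counted in those runs.

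**Figure D5:**
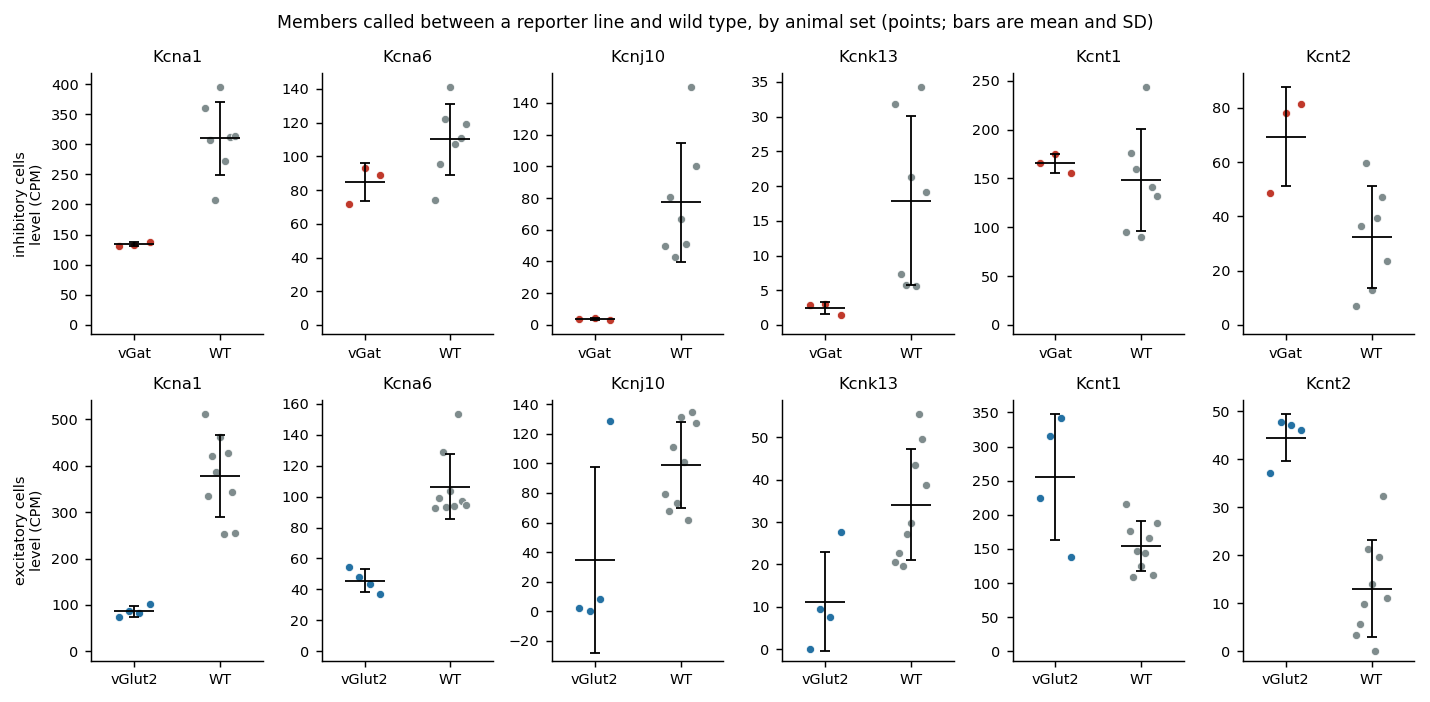
Level in CPM (linear y axes) of 6 potassium channel genes by animal set, in inhibitory cells (top: 3 vGat sets left, 7 wild-type sets right) and excitatory cells (bottom: 4 vGlut2 sets left, 9 wild-type sets right), with mean and SD. Kcna1 lies below wild type in every reporter set of both classes, and the 26-day vGlut2 set is the high point of Kcnj10 at 129 CPM.

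Age was examined in male-labelled sets of the wild type, as a slope in log2 per day. In excitatory cells (8 sets of 18 to 28 days) none of 28 genes was called by edgeR in either direction, where 0.0135% of all 7424 genes rose and 0.0135% fell. In inhibitory cells (6 sets of 18 to 27 days) none of 27 was called, where 0.0315% of all 6352 genes rose and 0.0157% fell. At an unadjusted p under 0.05 (edgeR) there was 1 potassium channel gene in each class. Of all genes tested, 8.31% in excitatory and 6.83% in inhibitory cells had such a p, so these genes do not stand out. They were Kcnk13 with a slope of 0.12 ± 0.05 log2 per day in excitatory cells (adjusted p = 0.47) and Kcnj10 with 0.13 ± 0.05 in inhibitory cells (adjusted p = 0.55). DESeq2 called 0 in both classes.

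Genes that work with the channels were counted from 3 lists. Of 22 channel partners and regulators, 19 were tested between the reporter lines, and 2 were higher and 2 lower in vGat cells, where 4.32% of all genes were higher and 4.53% lower. Cntnap2, which holds Kcna channels beside the node of Ranvier, was higher by 1.64 ± 0.23 on the log2 scale (adjusted p = 0.000168), as was Dpp10, an auxiliary subunit of Kcnd channels, by 0.75 ± 0.21 (adjusted p = 0.0379). Lower were Lrrc38 (-5.40 ± 0.75, adjusted p = 0.000138) and Lrrc55 (-1.02 ± 0.29, adjusted p = 0.0393), both gamma subunits of Kcnma1. Of 16 receptors and G proteins of the G-protein gated Kcnj channels 15 were tested, with 0 higher and 2 lower (Gnai2 and Gng4). Of 15 pumps and transporters of potassium 12 were tested, with 2 higher (Fxyd6 and Atp1b1) and 1 lower (Slc12a9). The medians of the lists were 0.11, 0.02 and -0.13 on the log2 scale.

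Of all genes tested against wild type, 8.39% were higher and 12.9% lower in inhibitory cells of the vGat line, and 5.08% were higher and 10.4% lower in excitatory cells of the vGlut2 line. Beside these shares, 4 partners were higher and 1 lower in inhibitory cells of the vGat line (16 tested), and 3 higher and 2 lower in excitatory cells of the vGlut2 line (17 tested). Amigo1, a partner of Kcnb channels, was higher in both, by 0.84 ± 0.28 (adjusted p = 0.0316) and by 1.05 ± 0.31 (adjusted p = 0.0225). Among pumps and transporters the vGat line had 2 higher and 5 lower (12 tested), and the vGlut2 line 0 higher and 4 lower (11 tested). The lower ones include Slc12a2, the sodium-potassium-chloride importer (-2.20 ± 0.21 and -2.06 ± 0.42). In excitatory cells of the vGlut2 sets Slc12a2 had a lowest, median and highest of 35.0, 55.9 and 258 CPM. The highest was the 26-day set, and the lists were not fitted without that set. Among receptors and G proteins 1 was higher and 3 lower in the vGat line, and 2 higher and 3 lower in the vGlut2 line (15 tested each). No gene of the 3 lists was called for age by edgeR in either class.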

How the data were processed

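Molecule counts (UMI counts) per gene and cell were analysed as the authors deposited them, with the cell types of the labels. Cell Ranger and the build mm10 are named in the submitters' processing notes, without versions, and the sources used here do not say whether counting used the strand. All 1545 cells had a column in the count table. Cells held a median of 8808 molecules (3012 to 32886), and 0 columns belonged to no sample.

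Counts were summed per animal set (all cells of 1 line, sex label and age), or per set and class where the set held 10 such cells or more. edgeR 4.0.16 (R 4.3.3) fitted TMM-normalized sums after filterByExpr with the quasi-likelihood test, and p-values were Benjamini-Hochberg adjusted over all genes tested, with a threshold of 0.05. The SE is the log2 difference over the square root of F. Classes within wild type were fitted with the set as a block. CPM are counts scaled to 1000000 molecules of the set or type. Type levels used sums over all cells of a type, and the ratio of the highest to the median type used the 26 types with at least 20 cells. With the median of all 30 types, 13 of the 15 genes named would be the same. The 18 cells with the labels Gaba1 and Glut_Gal, which name opposite classes, were in neither class.

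Values in every set are given for genes called between the reporter lines, values in types for the 15 genes with the largest ratio, and genes called elsewhere are named. Kcnd3, Kcnt1, Kcnd2, Kcnip4 and Kcna2 in types, and Kcna6 in inhibitory cells, were chosen after their values were seen. The genes and lists were chosen with earlier results of these data known. In simulated counts the reporter comparison recovered 97.5% of 200 genes changed by 1.5 on the log2 scale (10492 genes, 3.47% of calls false). For the age slope in excitatory cells, 98.0% of 200 genes with 0.25 log2 per day were recovered (7318 genes, 3.45% of calls false). Only genes expected at more than a few molecules in the smallest set were changed, and all genes were given the same fixed spread between sets. The recovered shares therefore do not cover genes of low counts such as Kcnf1, Kcns2, Kcng2 and Kcnmb2, nor smaller changes. DESeq2 1.42.0, other scalings, no filter, age as a covariate, other cell choices and leaving out each set were the alternatives. Some genes counted among the calls are not reported here by name.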

Additional observations from a re-analysis of the deposited data

Results flagged for a closer look

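Of 37 groups of sets examined, 3 held a set far from the others by Dixon's test, where chance gives about 1 in 20. Kcnj10 in excitatory cells was 129 CPM in the 26-day vGlut2 set, and the nearest of the other 3 vGlut2 sets had 8.18 CPM. Kcnt2 in excitatory cells was 37.2 CPM in the 23-day vGlut2 set, with the nearest other set at 46.0 CPM, just past the critical value. Kcnc4 in inhibitory cells of wild type was 142 CPM in the 22-day set labelled female, with the next of the 7 sets at 81.0 CPM.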

How the results depend on the processing

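No result for potassium channel genes changed direction under any alternative run. The 3 partner lists and the glial genes were examined in the main fits only. Shares over all genes were counted for the main fits only, so the counts of calls below have no background beside them. Between the reporter lines (9 higher, 2 lower), leaving out 1 set gave 3 to 15 higher and 0 to 6 lower, library size alone gave 1 lower, no filter on low counts gave 4 lower (13 higher), and age as a covariate gave 4 higher and 1 lower. Against wild type, leaving out 1 set gave 0 to 1 higher and 3 to 5 lower in inhibitory cells, and 0 to 4 higher and 3 to 5 lower in excitatory cells, and DESeq2 gave 0 higher in inhibitory cells (Kcnt2, adjusted p = 0.0572). Between classes in wild type, no filter gave 1 lower (6 higher), a 2-fold limit gave 2 higher, and leaving out 1 set gave 4 to 6 higher. The causes were not tested. The count of genes highest in an inhibitory type, 25, was 20 to 30 under 4 alternatives. The gene's highest type was the same for 29 of 50 as a mean over sets, 32 in wild-type cells and 26 in reporter cells. Chosen after the data were seen, leaving each set out of the type sums moved Kcnmb4 in Glut14 to 13.7 CPM, Kcnk13 in Glut3 to 40.4 CPM and Kcna5 in Gaba14 to 25.8 CPM at the lowest, and other named genes by less than 1.5 times. Age slopes gave 0 calls of potassium channel genes in every alternative. Small sets limit low genes, since 1 molecule is 9.57 CPM in the 24-day vGlut2 set and 6.29 CPM in the 26-day set. Classes within wild type, both taken from the same sets, gave 4 higher and 0 lower with or without the set as a block. Between the lines, no paired analysis was possible because the labels number cells and name no animals.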
